A study of Mus musculus with 9 samples.

Results

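The study grew mouse cortical neurons on 3 kinds of surface and sequenced their RNA, with each surface represented by libraries numbered repeat 1, 2 and 3. The comparison described here sets the 3 repeat 1 libraries against the 6 libraries of repeats 2 and 3, out of 9 in all, over every gene. The surface was held constant as a covariate, so that the difference is between repeats of the same condition. Libraries were assigned by the repeat number in the sample titles and by no measured value. The comparison itself was proposed with earlier results of these data known.

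The neurons were wild type and carried the name CD1, an outbred mouse stock. Each repeat holds 1 control library, 1 library of cells with a peptide amphiphile (PA) and 1 with the peptide amphiphile and PS2 (PA + PS2). A peptide amphiphile is a short peptide carrying a lipid-like tail, and such molecules gather into nanofibres in water. The library names add IKVAV, a laminin peptide sequence, for the PA libraries. The treatment label gives a peptide amphiphile for all libraries, controls included, and the groups follow the titles. No source used here gives the age of the animals, the time in culture or whether a repeat number marks a separate dissection, culture or RNA preparation. The labels give the molecule as polyA RNA but a total RNA extraction kit, and how RNA was selected, on which mitochondrial and noncoding shares depend, is not settled. The p-values measure the spread between these libraries, which may be technical.

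Primary cortical cultures are made by dissociating the embryonic or newborn cortex, and they hold neurons together with dividing progenitors and glia that survive plating. How many of these other cells are carried over, and how active the neurons are at harvest, is known to vary from one preparation to the next. Genes of the cell cycle, of radial glia, of activity and of the mitochondrial genome are among those described below. Their lists were chosen with earlier results of these data known. In bulk RNA, fewer cells of a type and less RNA per cell cannot be told apart.

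Levels are given in CPM, counts scaled to a common library size, and differences as log2 fold changes of repeat 1 over repeats 2 and 3 with their standard errors. A gene passed when its adjusted p was under 0.05 in the quasi-likelihood test of edgeR over 15712 genes. Total counts ran from 20746851 to 27237398. Summed markers of excitatory neurons were at 2905 to 3998 CPM and those of GABAergic neurons at 1905 to 2394 CPM, the highest of the marker lists, and the sample label is cortical neuron. Microglial markers summed to 14.9 to 31.1 CPM and endothelial markers to 3.16 to 12.02 CPM.

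The 4 coding stretches that follow are examples of base composition from genes chosen by the repeat 1 comparison itself. For that reason they cannot show what the libraries differed on. They come from protein-coding genes with a small p, 3 with higher values in repeat 1 and 1 with lower values, and they are not the full order by p. Each is the central 90 bases of the longest coding sequence in GENCODE M21 (mm10), 5′ to 3′ on the coding strand, with G and C in capitals. Noc2l, Piezo1 and Shd had higher values in repeat 1, and Top2a lower values.
Noc2l: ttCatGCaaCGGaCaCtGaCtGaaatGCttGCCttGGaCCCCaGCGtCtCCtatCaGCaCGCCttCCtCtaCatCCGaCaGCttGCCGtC
Piezo1: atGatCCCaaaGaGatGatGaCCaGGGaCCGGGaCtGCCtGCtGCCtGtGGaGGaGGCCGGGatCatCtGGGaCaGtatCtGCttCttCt
Shd: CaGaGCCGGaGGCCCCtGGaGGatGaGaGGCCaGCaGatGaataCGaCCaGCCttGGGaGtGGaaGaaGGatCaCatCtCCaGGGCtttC
Top2a: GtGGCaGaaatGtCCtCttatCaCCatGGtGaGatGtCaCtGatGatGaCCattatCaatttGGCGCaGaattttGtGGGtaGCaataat

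The GC content of these stretches was 55.6% in Noc2l, 56.7% in Piezo1 and 58.9% in Shd. It was 41.1% in Top2a, whose difference of -0.79 became -0.57 with the correction for GC content described below. The genes lie at chr4:156236010-156247616, chr8:122481698-122551329, chr17:55970467-55976625 and chr11:98992943-99024189 of mm10, in the same order.

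One gene passed in repeat 1 against repeats 2 and 3, which is 0.00636% of the genes tested, and it was higher in repeat 1. A far larger number sat short of the threshold: 3716 genes had an unadjusted p under 0.05, or 23.7%, with 1482 higher and 2234 lower. The repeat 1 library lay above both other repeats in all 3 groups for 1594 genes (10.1%) and below both for 1990 genes (12.7%). When repeats 2 and 3 were given terms of their own (the replicate block), 622 genes passed, 152 higher and 470 lower, or 3.96%. The first fit had no such terms, so differences between repeats 2 and 3 counted as spread in it. Each of the 9 libraries, in its deviations from its group, correlated best with a library of its own number. Without the PA + PS2 library of repeat 1 the count of the first fit became 1778, with 374 higher and 1404 lower, and without any 1 of the 3 control libraries it became 0. With DESeq2 in place of edgeR it was 1383. The count therefore rests on single libraries and on the fit, and the sizes below are given as values for every gene but the one that passed.

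That gene was Rps3a3, a processed pseudogene of the ribosomal protein gene Rps3a1 at chr13:108670603-108671397 of mm10, on the plus strand. The annotation places it inside the gene Pde4d on the same strand, with no Pde4d exon over it. The repeat 1 libraries held 121 reads in control, 14 in PA and 81 in PA + PS2. The other libraries held 2 and 1 in control, 2 and 1 in PA, and 0 and 0 in PA + PS2. Every repeat 1 library was above every other library. Rps3a3 rose in repeat 1 by 5.92 ± 0.60 on the log2 scale (SE, edgeR adjusted p = 0.00779), and the ratio of summed rates was 77.6, with a 95% exact interval of 35.1 to 213.8 for counting error only. The edgeR adjusted p became 0.388, 0.0644 and 0.0591 without control repeat 1, 2 and 3, and DESeq2 returned no adjusted p for it.

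The pseudogene and its parent share almost all of their sequence, which bears on where reads are counted. Of 795 aligned bases, 786 were identical (98.9%), with 9 mismatches, no gaps and a longest identical run of 215 bases. The stretch shown is bases 171 to 260 of Rps3a3, the 90 bases with the most mismatches, with the 2 differing bases in capitals.
Rps3a3: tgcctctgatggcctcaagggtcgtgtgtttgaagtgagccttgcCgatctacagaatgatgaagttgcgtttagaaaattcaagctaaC
Rps3a1: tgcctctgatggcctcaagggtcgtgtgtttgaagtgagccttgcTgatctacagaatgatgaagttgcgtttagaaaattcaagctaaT

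Rps3a1, which encodes a protein of the small ribosomal subunit, was at 23.1, 25.3 and 22.9 CPM in the repeat 1 libraries of control, PA and PA + PS2. In repeats 2 and 3 it ran from 19.4 to 29.4 CPM, so the groups overlapped (-0.04 ± 0.13, edgeR adjusted p = 0.896). How the authors' counting divided reads between the 2 genes is not stated, and the level of Rps3a3 is uncertain for that reason.

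**Figure D1:**
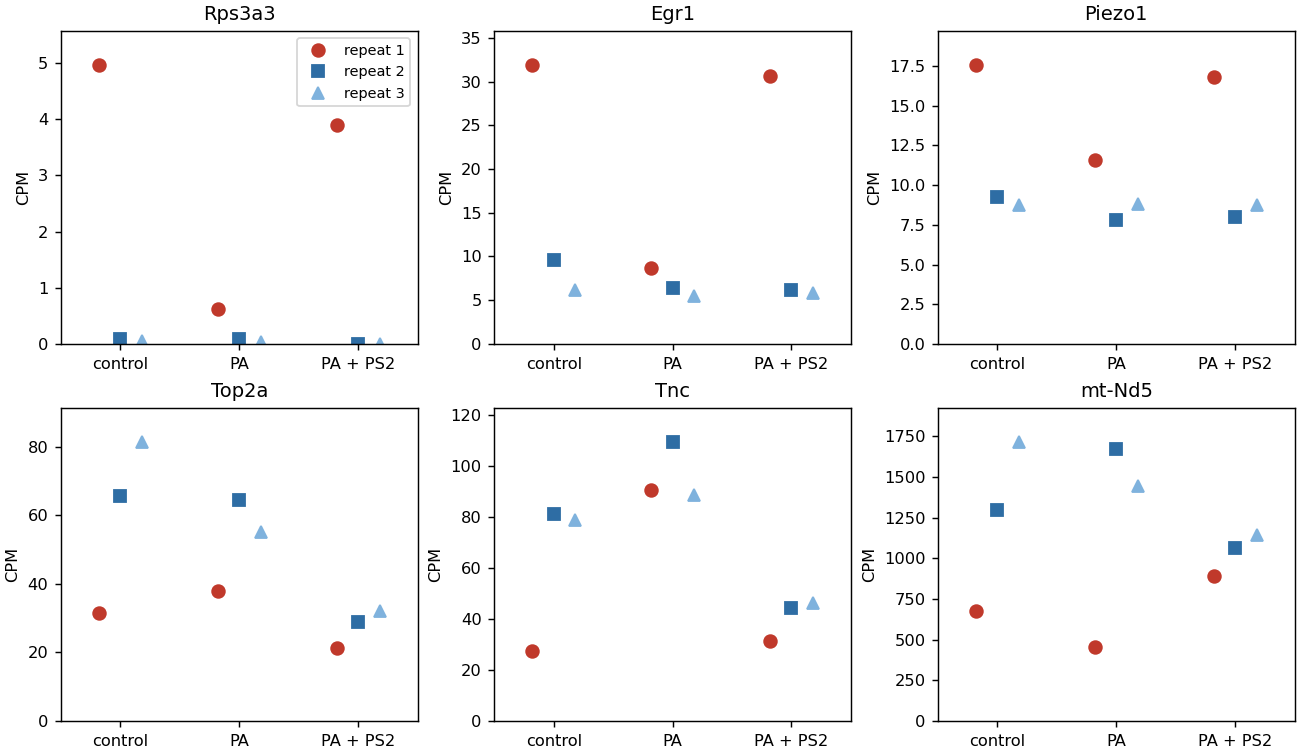
Level in CPM (linear axis from 0) of 6 genes in each of the 9 libraries, by group, with 1 point per library and no error bars. Rps3a3 and Piezo1 are higher in every repeat 1 library, Egr1 is high in repeat 1 of control and PA + PS2 and at 8.68 CPM in PA, and Top2a, Tnc and mt-Nd5 have low repeat 1 values in control.

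Of the 10 genes with the smallest p, 9 did not pass and shared an adjusted p of 0.0762 in edgeR. Noc2l, a nucleolar protein that inhibits histone acetylation, was at 135, 117 and 126 CPM in repeat 1 of control, PA and PA + PS2, against 86.8 to 95.5 CPM elsewhere (0.46 ± 0.07). Piezo1, a channel opened by membrane stretch, was at 17.6, 11.6 and 16.8 CPM against 7.79 to 9.26 CPM (0.82 ± 0.13). Neither gene's groups overlapped, which held for 996 genes above all other libraries and 996 below, 6.34% of the genes in each direction.

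Trpv2, a cation channel, was at 8.67, 5.04 and 9.23 CPM against 3.18 to 5.09 CPM (0.97 ± 0.16), so its PA value lay within the range of the others. Cacna1b, the pore subunit of the N-type calcium channel of presynaptic terminals, was at 472, 359 and 401 CPM against 232 to 299 CPM (0.61 ± 0.10). Sema3f, a secreted guidance protein, differed by 0.43 ± 0.07 and Shd, an adaptor protein, by 0.50 ± 0.08. In all 3 of Cacna1b, Sema3f and Shd the repeat 1 libraries were the highest.

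Zfp518a, a zinc finger protein, was low in repeat 1 at 7.89, 6.75 and 9.62 CPM, against 13.1 to 16.9 CPM (-0.89 ± 0.15). The noncoding RNA Dubr was at 13.2, 16.6 and 15.8 CPM against 23.2 to 24.7 CPM (-0.65 ± 0.10). Lrif1, a nuclear protein of the inactive X chromosome, was at 8.91, 6.93 and 12.5 CPM against 15.9 to 22.5 CPM (-1.05 ± 0.18). All 3 genes were lower in every repeat 1 library than in any other. With the correction for GC content described below, chosen after the data were seen, the differences became -0.38 for Zfp518a, -0.40 for Lrif1, 0.30 for Shd and 0.24 for Sema3f.

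The immediate-early genes, transcription factors and signalling genes induced within minutes of synaptic activity or of handling, had mostly higher values in repeat 1. Of 20 tested members none passed and 18 had values above 0, against 7807 of all 15712 genes. An unadjusted p under 0.05 with higher values was found in 8, against 9.43% of all genes. The median was 0.43, against -0.002 over all genes. By group the medians were 0.51 in control, -0.03 in PA and 0.46 in PA + PS2.

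Egr1, a transcription factor of this class, was at 31.9 CPM in repeat 1 of control and 30.7 CPM in PA + PS2, and at 8.68 CPM in PA. The other libraries ran from 5.49 to 9.56 CPM, so the PA library lay among them (1.73 ± 0.26, edgeR adjusted p = 0.0762). Junb, an AP-1 subunit, had the same order of groups, with 17.1 and 15.2 CPM in control and PA + PS2 and 9.98 CPM in PA, against 5.71 to 9.999 CPM (0.87 ± 0.20). Egr3 was at 5.75, 5.44 and 4.95 CPM against 2.45 to 4.70 CPM (0.71 ± 0.19), with no overlap, as for 6.34% of all genes. Repeats 2 and 3 also differed in this list, with a median of 0.57 for repeat 2 minus repeat 3. The delayed response genes, which follow these factors, had a median of 0.03 over 18 members, with 0.31 in control and -0.26 in PA.

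Genes of cell division had lower values in repeat 1. All 30 tested members of the proliferation list were below 0, against 50.3% of all genes, and none passed. Of them 18 had an unadjusted p under 0.05 with lower values, against 14.2% of all genes. In 17 the repeat 1 library was below both others in all 3 groups, against 12.7% of all genes. The median was -0.49, made up of -0.91 in control, -0.29 in PA and -0.27 in PA + PS2.

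Top2a, the topoisomerase that untangles replicated DNA, was at 31.4 CPM in control repeat 1 against 65.6 and 81.4 CPM in repeats 2 and 3. In PA it was at 37.8 CPM against 64.4 and 55.0 CPM, and in PA + PS2 at 21.4 CPM against 28.7 and 31.9 CPM. Within each group repeat 1 was the lowest (-0.79 ± 0.13, edgeR adjusted p = 0.0762). The spindle motor Kif11 (-0.87 ± 0.17), the kinetochore protein Cenpf (-0.89 ± 0.17) and cyclin A2, Ccna2 (-0.93 ± 0.19), had the same order.

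The progenitor list, which marks radial glia and intermediate progenitors of the cortex, was lower as well. All 18 members were below 0, against 50.3% of all genes, and none passed. An unadjusted p under 0.05 with lower values was found in 10, against 14.2% of all genes. The median was -0.38, with -0.68 in control, -0.12 in PA and -0.25 in PA + PS2. Summed progenitor markers were at 690.7 to 921.3 CPM in repeat 1 and 796 to 1218 CPM elsewhere.

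Fabp7, the fatty acid binding protein of radial glia, was at 24.2 CPM in control repeat 1 against 72.3 and 106 CPM. In PA it was at 72.8 against 107 and 96.2 CPM, and in PA + PS2 at 27.9 against 40.5 and 52.9 CPM. Its difference was -0.99 ± 0.22 (edgeR adjusted p = 0.0762). Ptprz1, a receptor phosphatase of radial glia, had non-overlapping values of 257, 269 and 264 CPM against 315 to 384 CPM (-0.41 ± 0.08, and -0.25 with GC correction). The same lack of overlap, with repeat 1 lower, held for 6.34% of all genes. Tnc, a matrix glycoprotein of progenitors and young astrocytes, was at 27.2 CPM against 81.2 and 78.7 CPM in control, but at 90.8 CPM between 110 and 88.4 CPM in PA. The transcription factor Gli3 differed by -0.83 ± 0.23.

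Astrocyte genes followed the same order of groups. Of 18 tested members, 13 were below 0, against 50.3% of all genes, and none passed. An unadjusted p under 0.05 with lower values was found in 7, against 14.2% of all genes. The median was -0.29, with -0.57 in control, -0.03 in PA and -0.21 in PA + PS2. The glutamate transporter Slc1a3 was at 22.4 CPM in control repeat 1 against 53.1 and 70.8 CPM, and at 51.2 CPM against 59.5 and 62.7 CPM in PA (-0.70 ± 0.19). Acsbg1, an acyl-CoA synthetase, was at 1.36 CPM against 5.09 and 5.801 CPM in control (-1.01 ± 0.29). Reactive astrocyte genes had a median of -0.58 over 8 members.

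Among oligodendrocyte lineage genes the transcription factors Olig1 and Olig2 were highest in repeat 2 of each group. Olig1 was at 20.1 CPM in control repeat 2 against 5.59 and 9.94 CPM in repeats 1 and 3, and at 19.7 CPM against 7.69 and 6.92 CPM in PA. The median of the 16 tested members was 0.06 for repeat 1 against repeats 2 and 3. For repeat 2 minus repeat 3 the list median was -0.07, while Olig1 was at 1.04 and Olig2 at 0.87, so these 2 genes do not stand for the list. Lists of endothelial cells (median 0.04, 5 members) and microglia (median -0.04, 14 members) were near the value of all genes, but their groups differed. In control, PA and PA + PS2 the medians were -0.064, 0.174 and 0.522 for endothelial cells and -0.182, 0.071 and 0.165 for microglia. The endothelial median ran from -0.447 to 0.284 and changed sign in 7 of 16 alternative settings.

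Neuronal identity and synapse lists had medians nearer 0, and no member passed. The striatal median was 0.22, with 0.165, 0.492 and -0.096 in control, PA and PA + PS2. That of immature neurons and growth cones was 0.13, with 0.155, 0.335 and -0.079. Members above 0 were 9 of 13 and 14 of 16, against 7807 of all 15712 genes. With GC correction the medians were 0.158 and 0.034, with 10 of 13 and 10 of 16 above 0. Without the correction, medians were 0.01 for excitatory neurons, 0.07 for GABAergic neurons and 0.13 for synaptic vesicle release. Those of glutamate receptors and scaffolds and of voltage-gated channels were 0.06 and 0.02. Members went either way, and among the 20 glutamate receptor and scaffold genes 6 had an unadjusted p under 0.05 with higher values and 6 with lower values, against 9.43% and 14.2% of all genes. Shank3, a scaffold of the postsynaptic density, was at 178, 176 and 151 CPM against 122 to 151 CPM (0.27 ± 0.07, and 0.06 with GC correction). Homer1, another scaffold, was at 113, 95.7 and 117 CPM against 129 to 140 CPM (-0.32 ± 0.08), and this sign turned to 0.20 once transcript GC content was corrected for. Kcnh7, a potassium channel subunit, was at 37.8, 33.0 and 38.3 CPM against 42.7 to 63.6 CPM (-0.52 ± 0.12, and -0.13 with GC correction).

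**Figure D2:**
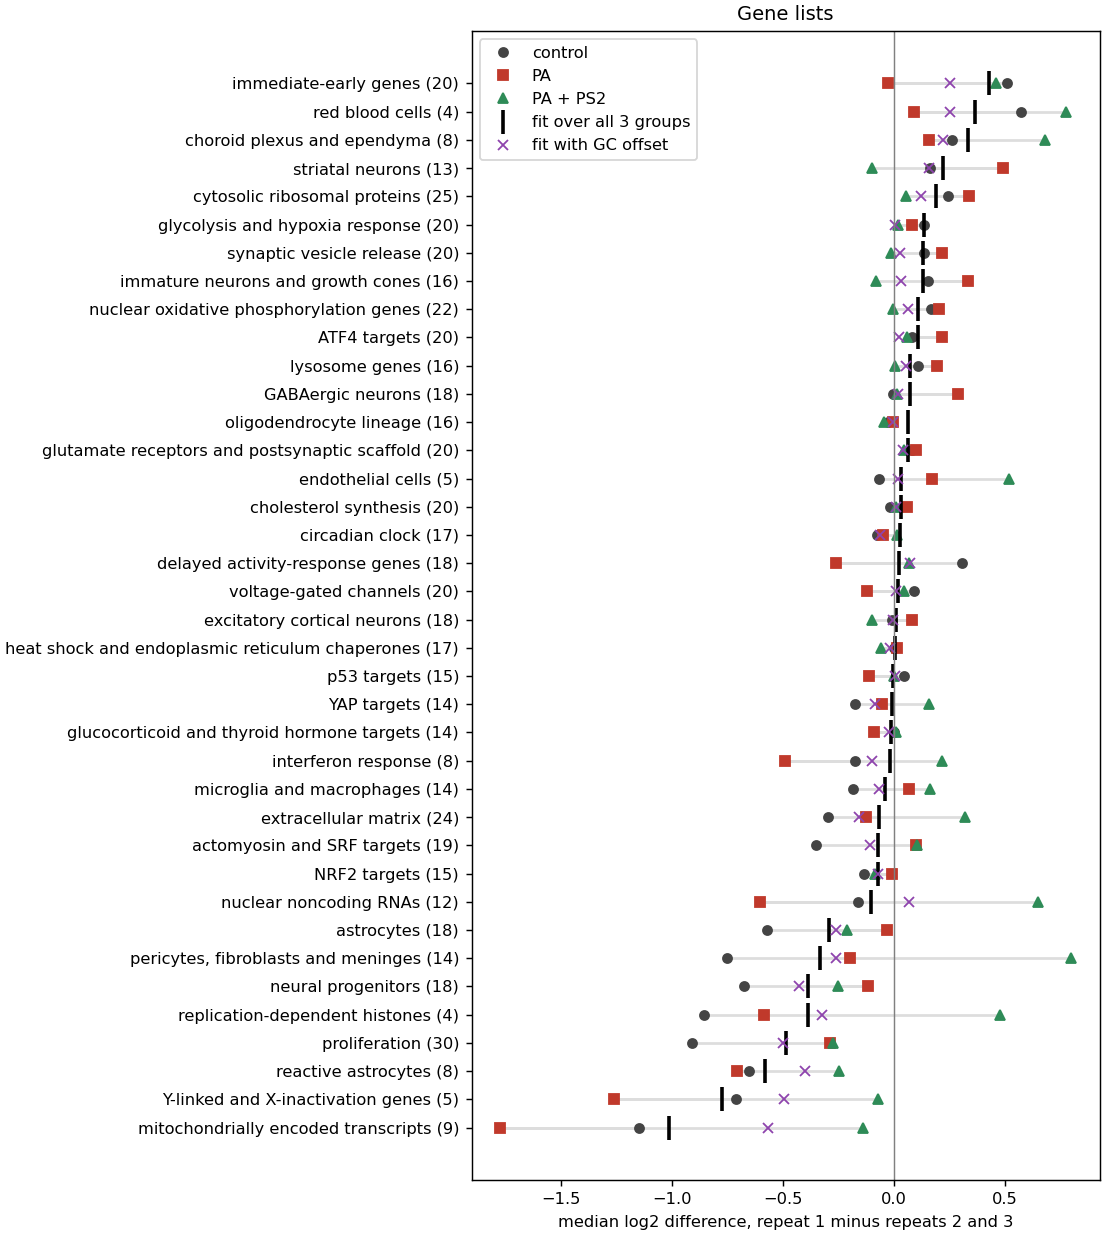
Median log2 difference of repeat 1 from repeats 2 and 3 for each gene list, with the number of tested members in brackets. Points are the 3 groups, the black bar is the fit over all groups and the cross is the fit with GC correction, with no error bars. Proliferation, progenitor and mitochondrially encoded genes lie below 0 in all 3 groups, with medians of -0.49, -0.38 and -1.01.

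The mitochondrial genome encodes subunits of the respiratory chain, and its transcripts had the lowest list median. All 9 tested members were below 0, at -1.56 to -0.79, against 50.3% of all genes, and none passed. All had an unadjusted p under 0.05, against 14.2% of all genes with lower values. The median was -1.01, with -1.15 in control, -1.77 in PA and -0.14 in PA + PS2. mt-Nd5, a subunit of complex I, was at 674.5 CPM against 1296 and 1716 CPM in control, 454 CPM against 1673 and 1444 CPM in PA and 893 CPM against 1062 and 1143 CPM in PA + PS2 (-1.04 ± 0.21, edgeR adjusted p = 0.0762, and -0.57 with GC correction). mt-Nd6, encoded on the other strand, differed by -1.56 ± 0.35, and by -0.98 with GC correction.

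Nuclear genes of the same respiratory complexes had a median of 0.11 over 22 members, 18 of them above 0, against 7807 of all 15712 genes. Ndufb8 of complex I was at 80.6, 82.8 and 73.5 CPM against 52.7 to 73.7 CPM (0.36 ± 0.09). Cytosolic ribosomal protein genes had a median of 0.19, with 21 of 25 above 0 and none passing.

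Mitochondrially encoded genes took 0.531%, 0.342% and 0.786% of the counts in repeat 1 of control, PA and PA + PS2. In repeats 2 and 3 they took 0.837% to 1.39%, so the repeats did not overlap. The mean difference within groups was -0.551 percentage points (exact permutation test over 27 assignments, 2-sided, p = 0.037, the smallest the design allows, and 0.333 adjusted over 9 library values). Total counts (p = 0.333), genes detected (p = 0.185) and the ribosomal protein share (p = 0.111) gave larger values in the same exact test.

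**Figure D3:**
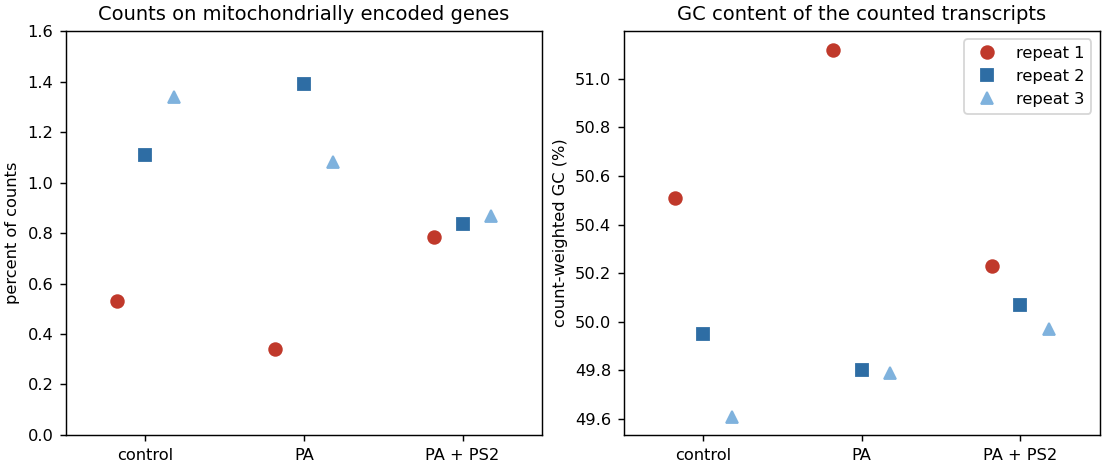
Percent of counts on mitochondrially encoded genes (left, axis from 0) and the GC content of the counted transcripts weighted by their counts (right, axis not from 0), with 1 point per library. Repeat 1 is the lowest on the left and the highest on the right in each group, and PA repeat 1 lies farthest out at 0.342% and 51.1%.

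The repeat 1 difference moved with the GC content of the transcript. Weighted by counts, GC content was 50.5%, 51.1% and 50.2% in repeat 1 of control, PA and PA + PS2, and 49.6% to 50.1% in the others. Among the 1570 genes with the lowest GC content, 28.7% to 41.2%, the median difference was -0.42 and 93.9% of genes were below 0. Among the 1570 with the highest, 57.9% to 78.3%, the median was 0.21 and 13.2% were below 0. Across 15699 genes, which are not independent replicates, Spearman's rho of the difference with GC content was 0.469 in control, 0.668 in PA and 0.217 in PA + PS2. For repeat 2 minus repeat 3 it was 0.272, 0.053 and 0.106. Differences between groups also moved with GC content, with rho 0.311 for PA minus control and 0.057 for PA + PS2 minus control.

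With a correction for GC content in each library, chosen after the data were seen, rho became 0.019 and 2 genes passed (0.0127%), Rps3a3 and Syn3. With that correction and separate terms for repeats 2 and 3 the count went from 622 to 4 (0.0255%), adding Srsf5 and the noncoding RNA Gm42047. In CPM without the correction, Srsf5 was at 124, 103 and 116 in repeat 1, within the 82.7 to 128 of the others. Gm42047 was lowest in repeat 2, at 0, 0 and 0.501 CPM. It was at 2.07 to 11.5 CPM in repeat 1 and 1.54 to 2.21 CPM in repeat 3, which overlap. Syn3, a synapsin of the vesicle cluster, was at 98.6, 89.0 and 82.6 CPM in repeat 1 against 58.6 to 70.3 CPM (0.62 ± 0.08 with the correction, edgeR adjusted p = 0.0462). The list medians after correction were -0.50 for proliferation and -0.43 for progenitors, against -0.49 and -0.38 before. They were -0.57 for mitochondrially encoded genes, against -1.01, and 0.25 for immediate-early genes, against 0.43.

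**Figure D4:**
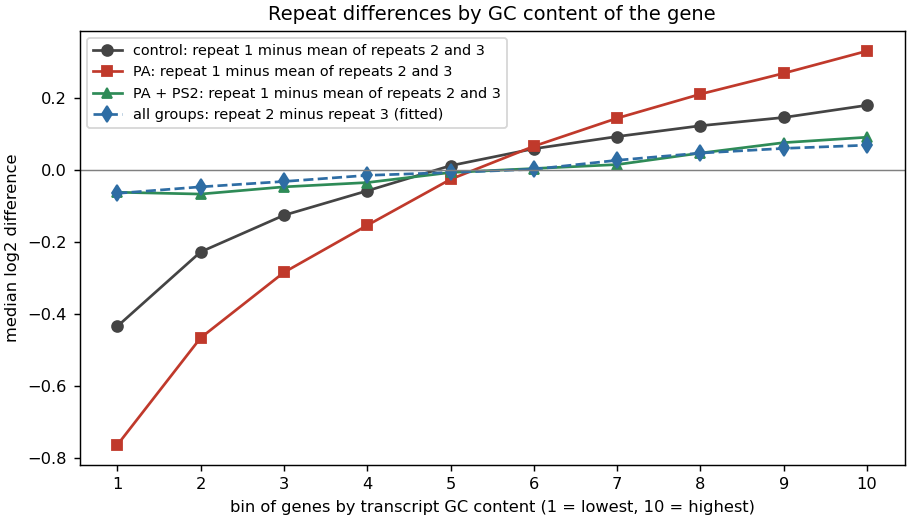
Median log2 difference in 10 bins of genes ordered by transcript GC content, for repeat 1 against repeats 2 and 3 in the 3 groups (solid lines) and for repeat 2 against repeat 3 over all groups (dashed line), with no error bars. The PA line runs from -0.76 to 0.33, the control line from -0.43 to 0.18 and the PA + PS2 line from -0.06 to 0.09.

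Whether the repeat 1 difference was of the same size in the 3 groups was tested by an interaction term. In edgeR no gene passed and 1284 had an unadjusted p under 0.05 (8.17%), while DESeq2 called 115. Within groups, 20 genes passed in control (0.127%, 2 higher and 18 lower), 1105 in PA (7.03%, 124 higher and 981 lower) and 0 in PA + PS2. In PA + PS2, 361 genes had an unadjusted p under 0.05 and DESeq2 called 2. Each group has 1 repeat 1 library, so these counts rest on single libraries. The differences correlated across genes at r = 0.422 between control and PA, 0.183 between control and PA + PS2 and 0.015 between PA and PA + PS2, given as a description of libraries that share no sample. With GC correction these were 0.239, 0.149 and -0.084.

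Xpo1 and Sept7 were among the genes with the smallest interaction p, did not pass (edgeR adjusted p = 0.174 for both) and are given as values only. Xpo1, the nuclear export receptor, was at 91.3 CPM in PA repeat 1 against 273 and 249 CPM, and at 277 CPM against 272 and 209 CPM in PA + PS2. Sept7, a septin of dendrites and dividing cells, was at 66.6 CPM in PA repeat 1 against 190 and 185 CPM. In control it was at 120 CPM against 186 and 208 CPM.

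Repeats 2 and 3 also differed from each other. In edgeR 28 genes passed (0.178%), 23 higher in repeat 2 and 5 lower. Over all 3 repeats, 150 genes passed for the repeat term (0.955%) and 87 for the group term (0.554%). Repeats held a median of 40.6% of the variance of log2 CPM and groups 16.0%, and repeats held the larger share in 70.4% of genes. Noise alone gives each of them some share, and that share was not computed.

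The Y-linked genes set repeat 2 apart. Kdm5d, a Y-linked histone demethylase, was at 18.9, 21.6 and 14.2 CPM in repeat 2 of control, PA and PA + PS2. It was at 7.19, 6.16 and 7.17 CPM in repeat 1 and at 6.72, 4.28 and 5.11 CPM in repeat 3. Kdm5d rose in repeat 2 over repeat 3 by 1.77 on the log2 scale (edgeR adjusted p = 0.0154), with no overlap between the 2 repeats. Eif2s3y, Ddx3y and Uty were also highest in repeat 2 of every group. Xist, the noncoding RNA that silences an X chromosome, was at 1717 and 1459 CPM in repeat 3 of control and PA, against 678 to 1104 CPM in their other repeats, and at 984, 787 and 976 CPM in repeats 1, 2 and 3 of PA + PS2.

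A search made after the values were seen looked for genes with every library of a repeat over 3-fold above, or under, all 6 others. It found 7, of which 1 was for repeat 1 (Rps3a3), 5 repeat 2 and 1 repeat 3 (Padi4). Padi4 met the rule only because repeat 3 was at 0, since its lowest repeat 1 value corresponds to about 1 read. H2-T24, a nonclassical class I histocompatibility gene, was at 2.35, 4.06 and 1.81 CPM in repeat 2 and at 0 to 0.288 CPM in the other 6 libraries. Padi4, an enzyme that converts arginine to citrulline, was at 0 in all 3 repeat 3 libraries, at 0.0481 to 0.534 CPM in repeat 1 and at 0.964 to 1.72 CPM in repeat 2. In repeat 2 over repeat 3 both rose (edgeR adjusted p = 0.0243 and 0.0432).

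**Figure D5:**
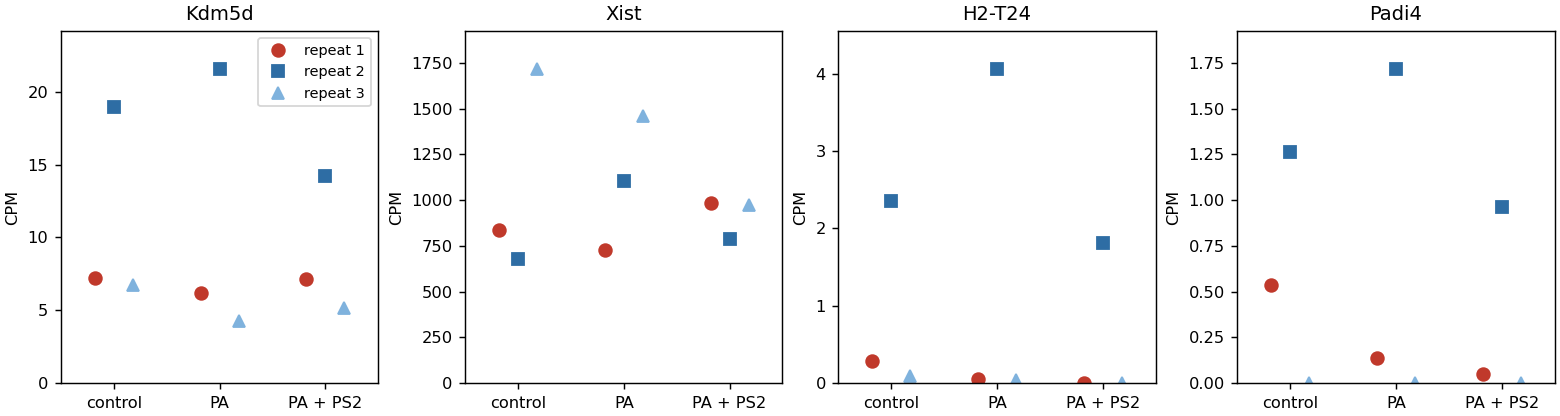
Level in CPM (linear axis from 0) of 4 genes in each library, by group, with 1 point per library. Kdm5d and H2-T24 are highest in repeat 2 of all 3 groups, Padi4 is at 0 in repeat 3, and Xist is highest in repeat 3 of control and PA.

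Red blood cell genes were followed as a sign of carried-over blood. Hbb-bs, adult beta globin, was at 4.27, 2.88 and 4.62 CPM in repeat 1 against 0.0419 to 2.25 CPM (1.59 ± 0.51, edgeR adjusted p = 0.103). Its values did not overlap, as for 6.34% of all genes with repeat 1 higher. The summed list was at 5.31 to 10.6 CPM in repeat 1 and 3.52 to 7.69 CPM elsewhere, and its part in the other differences was not tested. Col1a2, a fibrillar collagen of fibroblasts, was at 18.7, 3.82 and 7.31 CPM in repeat 1 against 9.04 and 4.60, 5.91 and 2.97, and 1.85 and 1.16 CPM (1.25 ± 0.39). It was the highest difference of its list, in which none passed and the median was -0.33. Of 14 tested members 10 were below 0, against 50.3% of all genes. The summed pericyte, fibroblast and meningeal markers were at 65.7 to 153.2 CPM in repeat 1 and 17.1 to 223.3 CPM elsewhere.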

How the data were processed

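RNA was sequenced from 9 mouse cortical neuron libraries. The authors deposited 1 table of unnormalized counts per library, each listing 54232 Ensembl genes. Build mm10 and the tools HTSeq 2.0.2, STAR 2.7.5, cutadapt 4.2 and DESeq2 1.14.1 are named, without roles, per the submitters' processing notes, and strand counting is not given in the sources used here. Names and positions came from GENCODE M21 (54079 identifiers matched).

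Genes were kept by filterByExpr (minimum count 10, minimum total 15), leaving 15712 genes and 99.9% of counts. The quasi-likelihood test of edgeR 4.0.16 (R 4.3.3) was fitted with group and a repeat 1 term (5 residual degrees of freedom), TMM scaling and Benjamini-Hochberg adjustment, and was tested on simulated data, whose spread followed the trend exactly, unlike that of the real genes, so the recovery is not quoted. Standard errors were derived from the F statistic. GC content is that of the longest transcript. Genes of chromosome 18 were left out of the printed coding stretches, and some items that the rules would give are not reported here. DESeq2 1.42.0, other filters and scaling, a replicate block, no group covariate and leaving out each library were alternatives.

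The members and the 38 gene lists (579 symbols tested) were chosen with earlier results of these data known. Named genes are those passing, up to 4 of smallest p per list, the Y-linked genes and Xist, the 10 of smallest p, and 6 of smallest interaction p. Rps3a1, H2-T24, Padi4, Lrif1, Syn3, Srsf5 and Gm42047 fall outside the rule, their values being known when they were picked.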

Additional observations from a re-analysis of the deposited data

Results flagged for a closer look

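In 6 of the genes named by the rule or chosen later, 1 of the 6 libraries of repeats 2 and 3 lay far from the other 5, by the Dixon ratio at its 95% critical value. Among 178 values examined this way, chance flags about 1 in 20. The flags fell 3 times on PA repeat 2: Slc32a1, the vesicular GABA transporter, at 49.5 CPM against a median of 66.4 CPM, Grin2a, an NMDA receptor subunit, at 38.1 against 26.9 CPM, and Amotl2, a YAP target, at 89.96 against 111.7 CPM. Control repeat 2 stood out for Egr1 at 9.56 against 6.17 CPM, PA + PS2 repeat 2 for the sterol enzyme Sc5d at 160.9 against 136.9 CPM, and control repeat 3 for the lysosomal gene Lamp2 at 47.8 against 38.1 CPM.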

How the results depend on the processing

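The number of genes that passed depended strongly on the fit. Repeat 1 against repeats 2 and 3 gave 1 gene, and gave 1458 with no filter on low counts, 0 with a minimum mean of 5 CPM, 9 without the group covariate, 1383 with DESeq2 and 0 to 1778 when each library was left out in turn. Without the filter edgeR took an infinite prior for the spread, against 6.75 prior degrees of freedom with it, so the genes shared 1 trend of spread. For the other changes of count the cause was not tested. A further pair of settings was added after seeing the data: a GC offset gave 2 genes, and the GC offset with the replicate block gave 4.

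The replicate block gave 622 genes. Libraries of the same repeat number correlated in their deviations at 0.015 to 0.422, and as 1 pair was under 0.1 the numbers were not taken to pair them, although each of the 9 libraries correlated best with its own number. With the block, leaving out repeat 1 of control, PA or PA + PS2, also added later, gave 0, 155 and 3253 genes.

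Repeat 2 against repeat 3 gave 28 genes, and 674 with no filter, 3 at 5 CPM, 325 with DESeq2 and 0 to 478 on leaving out libraries. The repeat term gave 150, and 355 with DESeq2 size factors, 2506 with no filter, 2 at 5 CPM, 1734 with DESeq2 and 1 to 3275 on leaving out libraries. The group term gave 87, and 638, 2 and 310 with no filter, 5 CPM and DESeq2, and 4 to 240. The interaction gave 0, and 370 with no filter, 115 with DESeq2 and 0 to 1. Within control 20 became 454, 0 and 157 with no filter, 5 CPM and DESeq2, and 0 to 36. Within PA 1105 became 1778 with no filter, and 570 to 1730. Within PA + PS2 0 became 2 with DESeq2 size factors or DESeq2, 55 with no filter, and 0 to 1. The mitochondrial share difference ran from -0.793 to -0.379 percentage points and that of the 10 most abundant genes from -0.0235 to 0.301, on leaving out libraries.

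Of 169 named genes, 8 changed sign under the GC offset. Without and with the block, it gave 0.049 and 0.054 for Dlx6os1, 0.198 in both for Homer1, 0.111 and 0.11 for Nlgn1, 0.068 and 0.071 for Inhba, -0.054 in both for Srf, 0.062 and 0.063 for Gclm, 0.019 and 0.02 for Snhg14 and -0.119 and -0.068 for Hist1h1c. With GC offset and block Rps3a1 was at 0.008 and Padi4 at 1.36. Padi4 was at 1.451 with the block alone, Hist1h1c at -0.002 at 5 CPM and Lyz2 at -0.029 without the group covariate. On leaving out libraries, values crossed 0 for Lyz2 (-0.044 to 0.885), C1qc (-0.818 to 0.239), Alas2 (-1.054 to 0.201), Hist1h2bc (-0.992 to 0.015), Hist1h1c (-0.264 to 0.283), Rps3a1 (-0.138 to 0.049) and Srsf5 (-0.027 to 0.155). The medians of the proliferation (-0.641 to -0.29), progenitor (-0.498 to -0.189), mitochondrially encoded (-1.49 to -0.567) and immediate-early lists (0.252 to 0.674) kept their sign under all 17 settings.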
